A study of Mus musculus with 6 samples.

Results

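Silencing of PARP2 in C2C12 cells was accompanied by higher mRNA of 4 enzymes that make, phosphorylate or dispose of NAD and its precursor nicotinamide, with Nnmt far ahead of Nmnat2, Nadk and Nampt. The genes examined were 10 enzymes of NAD metabolism taken as a list by name, namely Nampt, Nmnat1, Nmnat2, Nmnat3, Nadk, Nadsyn1, Nnt, Nnmt, Qprt and Cd38. Of these, 9 have a probe set that names only that gene, among 19938 such genes on the arrays. Cd38, an NAD glycohydrolase of the cell surface, has no such probe set in the annotation used and was not analysed here. Each of the 9 genes is read by a single probe set.

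The arrays compare C2C12 mouse myoblasts carrying a lentiviral PARP2-specific shRNA (shPARP2) with C2C12 cells carrying a scrambled shRNA (scPARP2), 3 samples of each line on 1 array each. C2C12 is an immortal muscle precursor line that fuses into myotubes. Both lines received lentivirus at a multiplicity of 40, were kept in high-glucose medium with serum and, per the study's methods, were held under puromycin. Each condition is a single selected line. Whether the 3 samples of a line came from separate cultures is not stated, and p-values therefore cover only the variation among these samples, possibly technical. Values are log2 expression after RMA, a method that corrects, normalizes and summarizes Affymetrix probes. A difference of 1 is a 2-fold change, and the signals of different probe sets are not comparable with each other.

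NAD carries electrons in catabolism and, as NADP, in biosynthesis and antioxidant defence. It is also used up by PARP enzymes, sirtuins and CD38, which split it and release nicotinamide. Cells rebuild NAD from nicotinamide through NAMPT and the NMNAT enzymes, from nicotinic acid, from nicotinamide riboside, or from tryptophan through the kynurenine branch, and NNMT draws nicotinamide away by methylating it. In muscle the salvage from nicotinamide is the main supply.

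The silenced gene itself was lower. Parp2 read 8.94, 9.13 and 9.05 on the scPARP2 arrays and 7.86, 8.14 and 7.91 on the shPARP2 arrays, so that 47.6% of the signal was left (adjusted p = 0.00103 from limma). The array medians lay between 7.04 and 7.18, the Pearson r between arrays was 0.989 to 0.995 within the lines and 0.979 to 0.983 between them, and the shPARP2 arrays varied more than the scPARP2 arrays (median SD per probe set 0.142 against 0.0753). When arrays were weighted by their agreement, shPARP2 replicates 2 and 3 received weights of 0.292 and 0.402 and the other arrays 1.42 to 2.30.

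At an adjusted p under 0.05 in limma, 4 of the 9 NAD enzyme genes were higher in shPARP2 cells, beside 12.4% of all genes, and 0 were lower, beside 11.6% of all genes (24.0% in either direction). The genes were listed with earlier results of these data known, so the counts are a description and not a test of an excess. Counted as probe sets, 9.41% of all were higher and 9.14% lower. At an unadjusted p under 0.05, 5 of the 9 passed, beside 34.8% of all genes, and 1 of these, Nnt, was lower. The arrays of the lines did not overlap for 6 of the 9 genes, beside 42.1% of all genes. The median log2 fold change was 0.12 over the 9 genes and -0.02 over all genes. These are total RNA measurements of whole cultures, in which fewer cells of a kind and less RNA per cell cannot be told apart.

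**Figure D1:**
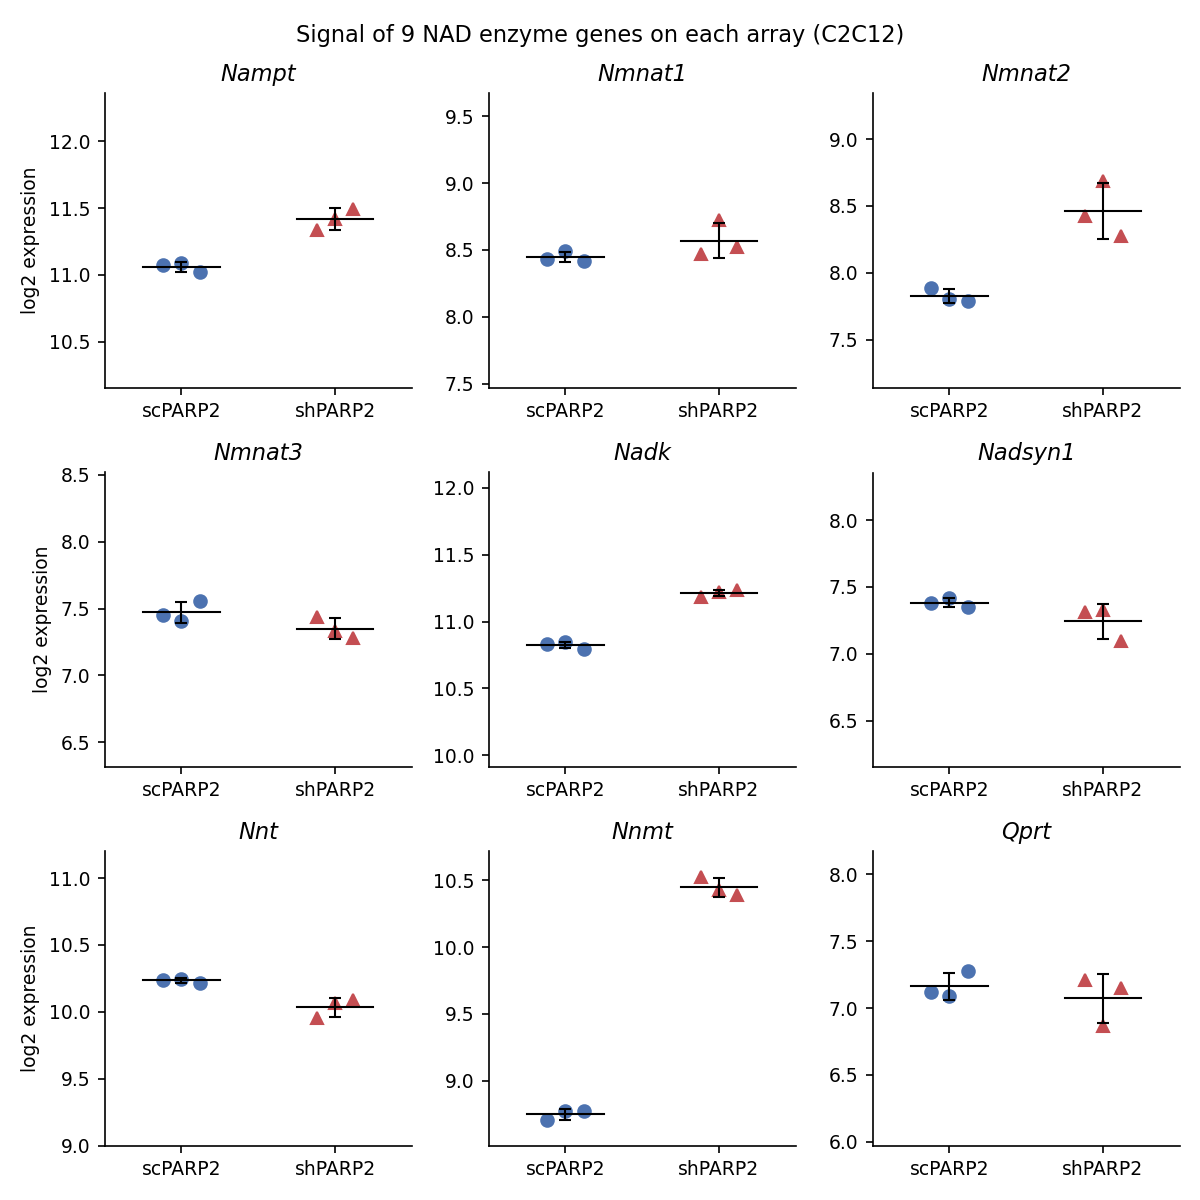
Log2 expression (vertical axes, all panels of equal height but with their own origin) of the 9 NAD enzyme genes on each of the 6 arrays. Blue circles are scPARP2 arrays, red triangles shPARP2 arrays, and bars the mean and SD of 3. The shPARP2 arrays lie above the scPARP2 arrays for Nampt, Nmnat2, Nadk and Nnmt, below them for Nnt and Nadsyn1, and overlap them in part for Nmnat1, Nmnat3 and Qprt.

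Nnmt, the methyltransferase that turns nicotinamide into methylnicotinamide at the expense of S-adenosylmethionine, changed most. Its probe set (10593219) read 8.70, 8.77 and 8.77 on the scPARP2 arrays and 10.53, 10.43 and 10.39 on the shPARP2 arrays. Every shPARP2 array was far above every scPARP2 array, and the 3 arrays of each line lay close together. Nnmt rose 3.24-fold, a log2 fold change of 1.70 (95% confidence interval 1.53 to 1.86, standard error 0.07, adjusted p = 5.64e-05 from limma). Leaving out any single array gave an adjusted p of 0.00103 at most. The genes whose profile over the 6 arrays was nearest to that of Nnmt, each centred on its scPARP2 mean, were Ncam1, the neural cell adhesion molecule, Slc2a6, a hexose transporter, and Nfil3, a basic leucine zipper repressor. Their root mean square differences from Nnmt were 0.0616, 0.0621 and 0.0626 on the log2 scale. The likeness was measured over 6 arrays that fall into the 2 lines and rests mostly on the distance between them.

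Aox1, the aldehyde oxidase that oxidizes methylnicotinamide to pyridones and stands after NNMT, moved in the opposite direction. Aox1 read 9.60, 9.51 and 9.55 on the scPARP2 arrays and 7.77, 8.08 and 7.57 on the shPARP2 arrays. The lines did not overlap, and the shPARP2 arrays were more spread. Aox1 fell by 1.75 on the log2 scale (95% confidence interval -2.07 to -1.43, adjusted p = 0.000525 from limma), which left 29.8% of the signal. Aox3, a related oxidase of liver, was dim (percentile 27.1 of the mean signals of the probe sets) and had a log2 fold change of -0.13 (adjusted p = 0.580). Of the genes that supply the methyl group, Mat2b, the regulatory subunit of methionine adenosyltransferase, and Mtr, methionine synthase, had log2 fold changes of -0.23 (adjusted p = 0.0768) and 0.22 (adjusted p = 0.308). With Gnmt, 3 of the 6 genes listed for methyl donor supply were measured. Of these, 0 passed the adjusted threshold in limma, beside 24.0% of all genes. At an unadjusted p under 0.05, 1 (Mat2b) passed, beside 34.8% of all genes. Counts over 3 genes say little about methyl supply.

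Nampt, which joins nicotinamide to phosphoribosyl pyrophosphate in the step that limits salvage, has a bright probe set (percentile 92.9 of the mean signals). It read 11.08, 11.09 and 11.02 on the scPARP2 arrays and 11.33, 11.42 and 11.50 on the shPARP2 arrays. The lines did not overlap, yet the change was small. Nampt rose 1.28-fold, a log2 fold change of 0.36 (95% confidence interval 0.19 to 0.53, adjusted p = 0.0158 in limma). This call ended without scPARP2 replicate 1, 2 or 3 (adjusted p = 0.0661, 0.0627 and 0.0837).

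Of the 3 NMNAT enzymes, which join nicotinamide mononucleotide to the adenylyl group of ATP and so make NAD, 1 rose and 2 did not pass the test. Nmnat2, the enzyme of the Golgi and cytosol best known for keeping axons alive, read 7.89, 7.81 and 7.79 on the scPARP2 arrays and 8.42, 8.69 and 8.27 on the shPARP2 arrays. Nmnat2 rose 1.55-fold with no overlap between the lines (log2 fold change 0.63, 95% confidence interval 0.36 to 0.91, adjusted p = 0.0116 from limma), and shPARP2 replicate 2 read highest. The call ended without scPARP2 replicate 2 (adjusted p = 0.0512) or 3 (adjusted p = 0.0526). Nmnat1, the nuclear enzyme, read 8.43, 8.49 and 8.42 against 8.47, 8.72 and 8.52, and its lines overlapped. Its log2 fold change was 0.12 (95% confidence interval -0.08 to 0.33, adjusted p = 0.421). Nmnat3, the mitochondrial enzyme, read 7.45, 7.41 and 7.55 against 7.43, 7.33 and 7.28, and overlapped as well. Its log2 fold change was -0.12 (95% confidence interval -0.31 to 0.06, adjusted p = 0.358).

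The difference between the changes of Nmnat2 and Nmnat1 was 0.51 on the log2 scale, and that between Nmnat2 and Nmnat3 was 0.76. Taken as the difference of the signals within each array, both separated the lines fully (exact permutation test, two-sided, p = 0.1 each, the smallest that 3 arrays against 3 allow, and 0.12 after Benjamini-Hochberg adjustment over 6 pairs chosen after their values were seen). The difference of 0.25 between Nmnat1 and Nmnat3 did not separate them (exact permutation test, p = 0.2). At this size no pair can pass a threshold of 0.05.

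Nadk, the cytosolic kinase that makes NADP from NAD, had the smallest SDs among the 4 genes that rose. Nadk read 10.83, 10.85 and 10.80 on the scPARP2 arrays and 11.19, 11.22 and 11.23 on the shPARP2 arrays. Its SD was 0.03 and 0.02 in the lines, and they did not overlap. Nadk rose 1.31-fold, a log2 fold change of 0.39 (95% confidence interval 0.24 to 0.53, adjusted p = 0.00629 from limma), and its adjusted p without any single array was 0.0454 at most.

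Nadk2, the mitochondrial NAD kinase, went down on the same arrays. Nadk2 read 9.53, 9.39 and 9.51 against 9.09, 9.15 and 9.21, a log2 fold change of -0.32 (95% confidence interval -0.50 to -0.15, adjusted p = 0.0247 from limma). The lines did not overlap, but the call ended without scPARP2 replicate 1, 2 or 3 or shPARP2 replicate 1 (adjusted p from 0.0517 to 0.114). The changes of Nadk and Nadk2 lay 0.71 apart on the log2 scale (exact permutation test of the within-array difference, p = 0.1, the smallest possible). Slc25a51, the carrier that brings NAD into mitochondria, read 10.04, 10.01 and 10.02 against 9.33, 9.64 and 9.40. Slc25a51 fell by 0.57 on the log2 scale (95% confidence interval -0.80 to -0.34, adjusted p = 0.00832 in limma), with no overlap between the lines. The call of Slc25a51 held without any single array (adjusted p up to 0.0414).

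Nnt, the transhydrogenase of the inner mitochondrial membrane that makes NADPH from NADH, read 10.24, 10.25 and 10.22 on the scPARP2 arrays and 9.95, 10.06 and 10.09 on the shPARP2 arrays. Each shPARP2 array was below every scPARP2 array, by a small amount. The log2 fold change of -0.20 (95% confidence interval -0.36 to -0.04, unadjusted p = 0.0220) did not pass over all probe sets (adjusted p = 0.0934 from limma). It passed after quantile normalization (adjusted p = 0.0283), without dim probe sets (0.0418), with a trended and robust variance (0.0441) and with array weights (0.0207).

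**Figure D2:**
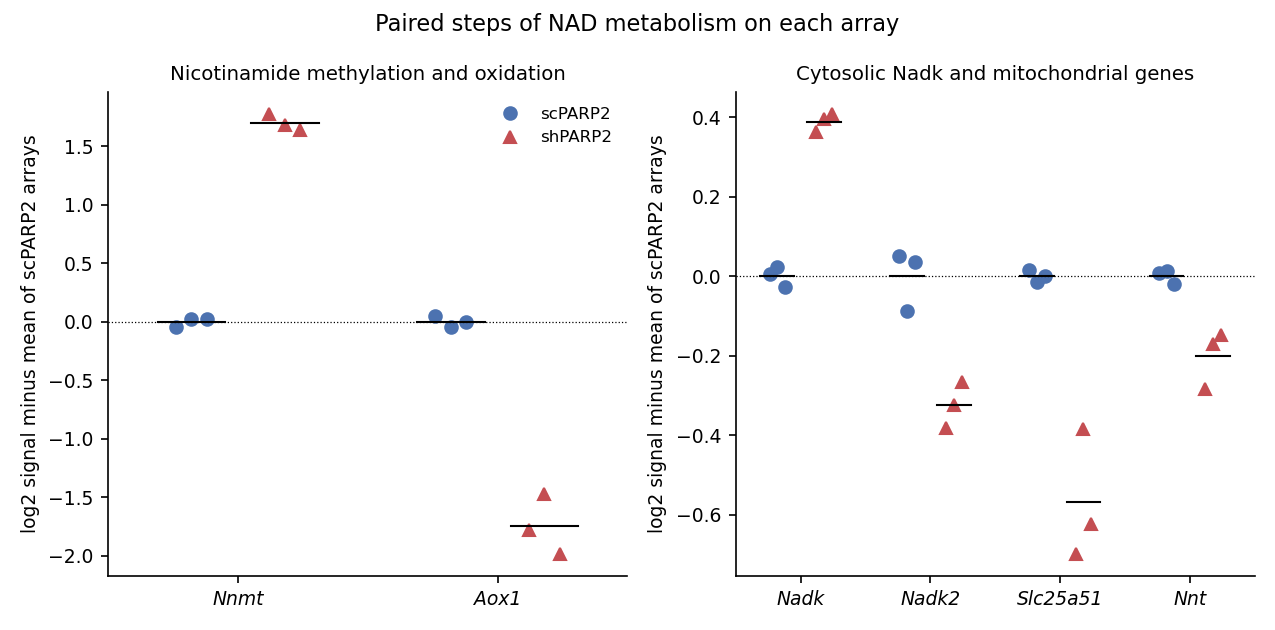
Log2 signal on each array minus the mean of the scPARP2 arrays (vertical axes, which differ in scale) for Nnmt and Aox1 (left) and for cytosolic Nadk and the mitochondrial genes Nadk2, Slc25a51 and Nnt (right). Blue circles are scPARP2 arrays, red triangles shPARP2 arrays and bars the means of 3. The shPARP2 means lie at 1.70 for Nnmt, -1.75 for Aox1, 0.39 for Nadk, -0.32 for Nadk2, -0.57 for Slc25a51 and -0.20 for Nnt. Nnt did not pass the test, and the genes set side by side were chosen after their values were seen. Of mitochondrial genes not shown, Nmnat3 did not pass (-0.12, adjusted p = 0.358 from limma) and Sirt5 was lower (-0.35, adjusted p = 0.0180). Whether cytosolic and mitochondrial genes differ as groups was not tested.

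Nadsyn1 and Qprt, which stand on other routes into NAD, did not pass the test. Nadsyn1, the synthetase that amidates nicotinic acid adenine dinucleotide, read 7.38, 7.42 and 7.35 against 7.31, 7.33 and 7.09. The lines did not overlap, by a narrow margin, and the log2 fold change was -0.14 (95% confidence interval -0.34 to 0.06, adjusted p = 0.348 from limma). Qprt, which carries quinolinate from the kynurenine branch into the pathway, read 7.12, 7.09 and 7.28 against 7.21, 6.86 and 7.15, with overlap. Its log2 fold change was -0.09 (95% confidence interval -0.35 to 0.18, adjusted p = 0.689). Over the 5 genes that did not pass, the confidence intervals ran from -0.36 to 0.33 on the log2 scale. With 3 arrays per line, changes within the interval of each gene were not excluded for that gene.

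Other genes of the pathway, 22 in number and all measured, are set beside these enzymes. Of them, 1 rose (Pnp), 4 fell (Aox1, Slc25a51, Afmid and Nadk2) and 17 did not pass the test, with a median log2 fold change of -0.06. With 5 of 22 called, these genes lay near the 24.0% of all genes called in either direction. In the kynurenine branch 1 of 8 genes fell and 7 did not pass, and 7 of the 8 were dimmer than the median probe set, where changes are harder to see. Afmid, the formamidase that releases kynurenine, was the exception in brightness and the gene that fell. It read 8.77, 8.75 and 8.75 against 8.38, 8.39 and 8.30, without overlap, a log2 fold change of -0.40 (95% confidence interval -0.55 to -0.25, adjusted p = 0.00654 in limma). Ido1 and Tdo2, the dioxygenases that open the tryptophan ring, were dim (percentiles 26.9 and 10.6) and had log2 fold changes of -0.16 and -0.10 (adjusted p = 0.218 and 0.549).

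Among the 10 genes of precursor salvage, transport and NADP, 1 rose, 2 fell and 7 did not pass, which is also near the background of 24.0% of all genes. Pnp, the purine nucleoside phosphorylase that also splits nicotinamide riboside to nicotinamide, read 8.67, 8.59 and 8.65 against 8.98, 9.33 and 9.25. The lines did not overlap, and Pnp rose by 0.55 on the log2 scale (95% confidence interval 0.30 to 0.79, adjusted p = 0.0129 in limma). That call ended without scPARP2 replicate 2 (adjusted p = 0.0584) or 3 (adjusted p = 0.0528). Nmrk1 and Nmrk2, the riboside kinases, had log2 fold changes of -0.41 (95% confidence interval -0.91 to 0.08, adjusted p = 0.244) and 0.10 (95% confidence interval -0.11 to 0.32, adjusted p = 0.530). Nmrk1 varied widely in the shPARP2 line, at 6.93, 7.41 and 6.57, and without shPARP2 replicate 2 it was at -0.64 with an adjusted p of 0.0233. Naprt, which starts from nicotinic acid, had a log2 fold change of -0.07 (adjusted p = 0.703).

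Of the enzymes that release or remove nicotinamide, Bst1, a cyclase related to CD38, was dim (percentile 26.9). Sarm1, the NAD hydrolase of degenerating axons, was dimmer than the median probe set (percentile 40.8). Bst1 and Sarm1 had log2 fold changes of -0.05 and -0.0019 (adjusted p = 0.827 and 0.995 from limma). Aox1, given above, was the 1 gene of the 4 in this group that passed, which is near the 24.0% of all genes called in either direction.

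**Figure D3:**
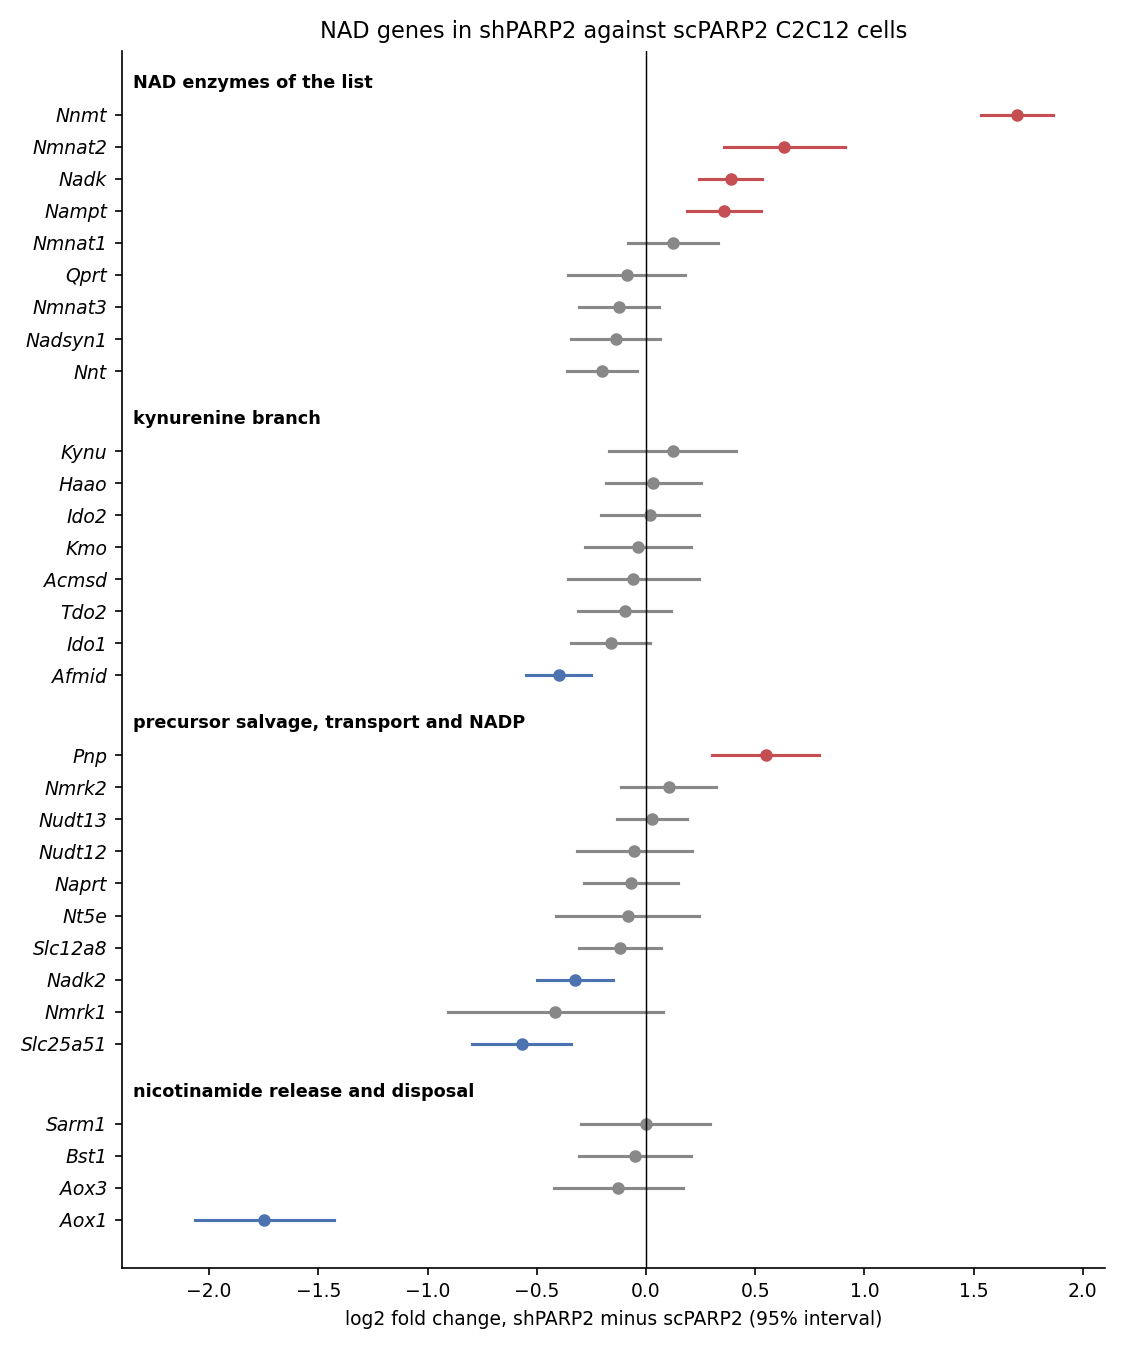
Fitted log2 fold change, shPARP2 over scPARP2 (horizontal axis), of the 9 measured NAD enzyme genes and of 22 other genes of the pathway in 3 groups. Points are fitted differences of 3 arrays against 3 with 95% confidence intervals. Red points are higher and blue points lower at an adjusted p under 0.05, and grey points did not pass. Nnmt at 1.70 and Aox1 at -1.75 stand apart from the rest.

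The enzymes that spend NAD form a list of 15 ADP-ribosyltransferases and sirtuins, of which 14 were measured. Here 1 rose, 4 fell, the silenced Parp2 included, and 9 did not pass, beside 12.4% of all genes higher and 11.6% lower. Sirt1, the nuclear deacetylase, had a log2 fold change of 0.48 (adjusted p = 0.0128), Sirt2 -0.32 (0.0202) and Sirt5, the mitochondrial desuccinylase, -0.35 (0.0180). The number of calls changed when 1 array was left out. Without scPARP2 replicate 1, 2 or 3 only 1 gene was lower. In this list 2 were lower without shPARP2 replicate 1 and 7 without shPARP2 replicate 2, and 0 were higher without scPARP2 replicate 2 or 3. Over all probe sets the number higher fell as well, from 3345 to 1961, 1953 and 1842 without scPARP2 replicate 1, 2 and 3. The number lower went from 3249 to 1826, 1761 and 1779 without the same arrays. It was 2250 without shPARP2 replicate 1 and 3782 without shPARP2 replicate 2, so the swing was not confined to this list.

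Of the 8 myoblast markers, 0 were dimmer than the median probe set in mean signal, though Pax7 was only just above it (percentile 50.55). Markers of muscle differentiation moved with the comparison. Of 8 markers of differentiated muscle, 8 rose, beside 12.4% of all genes, among them Mymk, the fusion protein myomaker (1.89), Acta1, skeletal actin (1.20), Tnnt3, fast troponin T (1.13), and Myh3, embryonic myosin (1.02). Their summed log2 signal ran from 74.6 to 75.4 on the scPARP2 arrays and from 82.3 to 84.5 on the shPARP2 arrays. The marker lists too were chosen with earlier results of these data known, so their counts are a description. Without scPARP2 replicate 1, 2 or 3 or shPARP2 replicate 1, 6 of the 8 passed, and 7 passed without shPARP2 replicate 2 or 3. Of 8 myoblast markers 5 rose and 1 fell, with log2 fold changes of 1.13 for Myf5, 0.96 for Itga7, 0.67 for Chrna1 and -0.76 for Vcam1. Whether the state of differentiation has a part in the changes of the NAD genes was not tested.

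No marker of other cells passed the adjusted threshold upward. Over all genes 12.4% were higher and 11.6% lower, and 34.8% had an unadjusted p under 0.05 in limma. Counts in lists this short therefore say little about the presence of other cells. Of 8 measured markers of macrophages and leukocytes 0 were higher and 1 fell, Cd68, a lysosomal protein that is not confined to macrophages (-0.72, adjusted p = 0.00119). Their summed log2 signal was 51.3 to 51.7 in scPARP2 and 50.6 to 51.4 in shPARP2 cells, and 6 of the 8 were dimmer than the median probe set. At an unadjusted p under 0.05 a further marker, Lyz2, was higher (0.67, adjusted p = 0.0565 from limma). Of 7 adipocyte markers 0 passed the adjusted or the unadjusted threshold in limma, with Fabp4 at -0.19 and Pparg at -0.09 (summed signal 47.5 to 47.7 against 46.7 to 48.0). In this list 5 were dimmer than the median probe set, whereas Pparg was bright (percentile 88.2). Of 7 endothelial and epithelial markers 0 passed in limma and 1, Tek, was lower at an unadjusted p under 0.05 (-0.31, adjusted p = 0.105), while Epcam was at -0.11 (summed signal 45.9 to 46.8 against 45.2 to 46.7).

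The calls among the NAD enzyme genes differed in how many alternatives of the samples or the processing they passed. Nnmt and Nadk passed under each of 14 alternatives, Nmnat2 under 12, Nampt under 10 and Nnt under 4, and the remaining genes under 0 (Nmnat1, Nmnat3, Nadsyn1 and Qprt). Among the fits that left out 1 array, Nnmt and Nadk passed in 6, Nmnat2 in 4, Nampt in 3 and Nnt in 0. The 14 include averaging the probe sets of a gene, which leaves the values of these genes unchanged. Stricter thresholds are not among the 14. Nadk and Nampt did not reach 1.5-fold, and Nampt and Nmnat2 did not pass at an adjusted p under 0.01 in limma. In each of the 14, Nampt, Nmnat2, Nadk and Nnmt were higher and Nnt lower in shPARP2 cells.

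**Figure D4:**
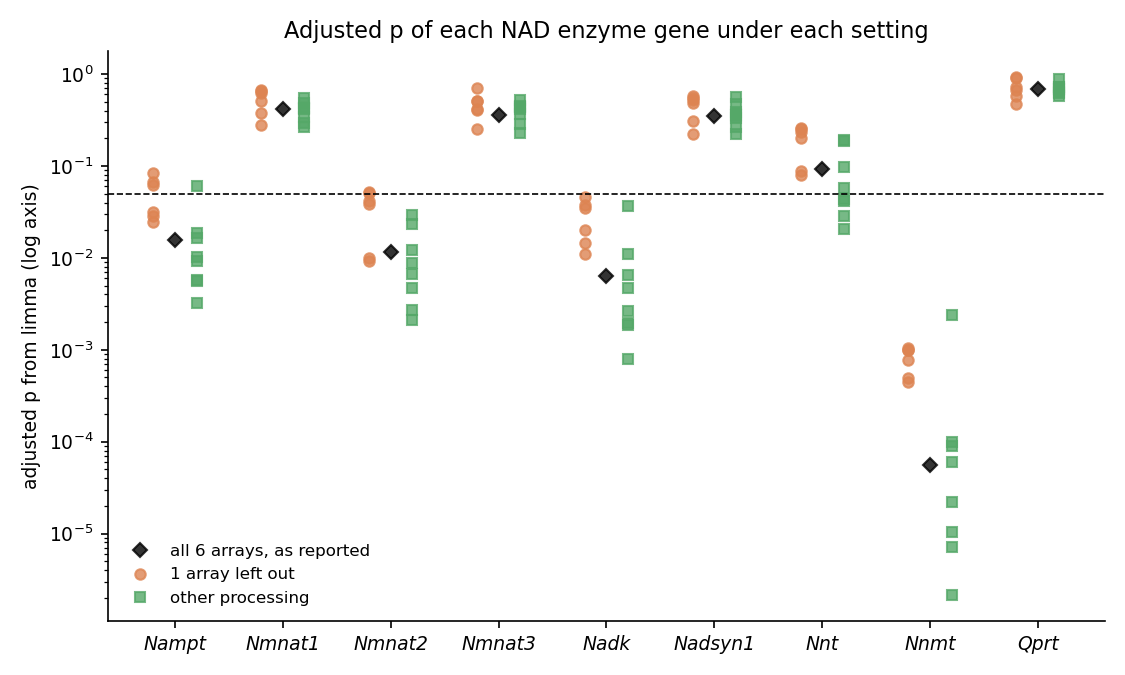
Adjusted p from limma (vertical log axis) of each of the 9 NAD enzyme genes. Black diamonds use all 6 arrays, orange circles leave out 1 array, green squares are other processing and the dashed line marks 0.05. Nnmt lies at 0.00237 or below under each setting, whereas circles of Nampt and Nmnat2 lie on both sides of the line.

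Promoter sequence was examined for the members, with the enzymes that rose shown because they moved in the same direction. RefSeq windows of the 250 bases before the start (GRCm38.p6) were at hand for Nampt, Nmnat2 and Nadk among these. The windows of Nampt and Nadk that hold matches are shown 5′ to 3′ on the strand of the gene, Nampt from chr12:32820085-32820334 (plus strand) and Nadk, at the downstream of its 2 listed starts, from chr4:155563565-155563814 (plus strand). Capitals mark GGGCGG or its reverse complement, the GC box, and CACGTG, the E-box.
Nampt: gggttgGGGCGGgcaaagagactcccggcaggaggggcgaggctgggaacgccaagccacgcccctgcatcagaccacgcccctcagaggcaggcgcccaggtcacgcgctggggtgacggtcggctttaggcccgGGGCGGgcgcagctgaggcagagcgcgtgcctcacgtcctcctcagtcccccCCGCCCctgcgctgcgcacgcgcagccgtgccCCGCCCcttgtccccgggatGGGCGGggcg
Nadk: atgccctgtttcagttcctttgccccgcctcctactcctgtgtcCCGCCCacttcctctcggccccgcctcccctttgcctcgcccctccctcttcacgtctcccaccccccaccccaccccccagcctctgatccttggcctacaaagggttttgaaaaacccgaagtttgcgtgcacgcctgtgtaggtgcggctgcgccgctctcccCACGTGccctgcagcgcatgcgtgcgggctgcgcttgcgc
The Nampt window holds 5 matches to GGGCGG on either strand and is 75.6% G or C. The Nadk window holds 1 match to GGGCGG and 1 to CACGTG, which begins 40 bases before the start. The windows of Nmnat2 and of the other Nadk start hold neither. Members that did not pass hold GGGCGG too, with 2 matches for Nmnat3, 2 for Nadsyn1 and 1 at each start of Nmnat1, so the motif does not set apart the genes that rose. Of all 32851 windows of this length, 32.7% hold GGGCGG and 6.02% hold CACGTG. TGACNNNGC, the core of the antioxidant response element that NRF2 binds, is held by 10.2% of windows on either strand and was not in the windows of Nampt, Nmnat2 or Nadk. The window of Qprt, a member that did not pass, holds 1 match, which begins 76 bases before the start. No match overlapped another kind in the windows shown. A match describes letters only, and no binding was measured.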

How the data were processed

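Total RNA (250 ng) of 3 scPARP2 and 3 shPARP2 C2C12 samples was hybridized to Affymetrix Mouse Gene 1.0 ST arrays. The deposited table gives log2 values of 35556 probe sets, made by the authors with RMA per the labels. The sources used here do not give its software version or genome build. No scanner files were used. The arrays give no read depth, and their number limits the precision.

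Gene names came from the platform annotation of single-gene probe sets (21789), updated through Entrez identifiers to RefSeq symbols, and the brightest probe set was read for each gene. Both lines entered a fit without covariates in limma 3.58.1 (R 4.3.3, lmFit and eBayes), the tool the study's methods name. Benjamini-Hochberg adjustment covered every probe set, with a threshold of 0.05. The calculation was tested on simulated data. Exact permutation tests used SciPy 1.17.1 and figures matplotlib 3.10.9.

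The members and lists were chosen with earlier results of these data known. Named were all members, Parp2, up to 4 passing genes of each list (otherwise the 2 with the smallest p) and the 3 genes nearest to the member that changed most. Other pathway genes, Lyz2 and the pairs compared were named after their values were seen. Alternatives were quantile normalization, median centring, leaving out dim probe sets (below the 40th percentile) or probe sets of several genes, array weights, a trended and robust variance, a block for the replicate number, averaging the probe sets of a gene, stricter thresholds (0.01, or 1.5-fold) and leaving out each array. Genome coordinates of the probe sets were not used.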

Additional observations from a re-analysis of the deposited data

How the results depend on the processing

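The 4 higher NAD enzyme genes numbered 4 under quantile normalization, centring, removal of dim probe sets, array weights, restriction to single-gene probe sets, a trended and robust variance and averaging the probe sets of a gene, which changes nothing for genes with 1 probe set. They numbered 2 at an adjusted p under 0.01, 2 with a change of at least 1.5-fold, and 2 to 4 when an array was left out. The lower ones numbered 1 (Nnt) with quantile normalization, without dim probe sets, with a trended and robust variance and with array weights, and 0 to 0 when an array was left out. Of the other pathway genes, 0 were higher at an adjusted p under 0.01 or with a change of at least 1.5-fold, 1 was lower with that change, and 0 to 2 were higher and 3 to 5 lower when an array was left out. Over all probe sets, 3345 were higher and 3249 lower. These numbered 1736 and 1589 at an adjusted p under 0.01, 1458 and 1327 with a change of at least 1.5-fold, 1842 to 3449 and 1761 to 3782 when an array was left out, and 4941 lower with array weights.

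Same-numbered arrays of the lines did not deviate together (r = -0.051, 0.092 and 0.011), so the numbers were not taken as pairs. With the replicate number as a block 2455 probe sets were higher and 2338 lower, 3 NAD enzyme genes were higher, Nampt not among them (adjusted p = 0.0600), and Nadk2 did not pass (adjusted p = 0.0721). Dim genes, most of the kynurenine branch among them, are limited by signal over background.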

Other observations

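The genes that lie beside the NAD enzymes on the chromosome were read after the results were seen, taking the 3 nearest measured protein-coding genes on each side in the RefSeq order. Of 24 such genes beside the 4 enzymes that rose, 5 were higher and 2 lower, beside 12.4% and 11.6% of all genes (24.0% in either direction), and these small counts are given as values only. Beside Nnmt, 2 of 6 were higher and 0 lower in limma, Rexo2, an oligoribonuclease (log2 fold change 0.59, adjusted p = 0.00318), and Rbm7, an RNA-binding subunit of the nuclear exosome targeting complex (0.62, adjusted p = 0.00759). Zbtb16 on the other side was at -0.09 (adjusted p = 0.618). Beside Nadk, 2 of 6 were higher, Cdk11b (0.70, adjusted p = 0.00436) and Mmp23 (0.67, adjusted p = 0.00886), and 0 lower. Beside Nmnat2, 1 was higher, the laminin chain Lamc1 (0.33, adjusted p = 0.0399), and 1 lower, Rgl1 (-0.99, adjusted p = 0.00318). Beside Nampt, 0 of 6 were higher and 1 was lower, Prkar2b, a regulatory subunit of protein kinase A (-1.92, adjusted p = 0.000708).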
